A study of Homo sapiens with 11 samples.

Results

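The set holds 10 human genes of pericellular proteolysis, 7 matrix metalloproteinases (MMP1, MMP2, MMP7, MMP9, MMP10, MMP13 and MMP14) and 3 tissue inhibitors of metalloproteinases (TIMP1, TIMP2 and TIMP3). They were taken by symbol from the 25590 genes of the RNA sequencing tables of 11 PC-3 tumours, and all 10 were found. PC-3 cells come from a human prostate carcinoma, and every tumour had grown under the skin of young adult male athymic nude mice, which lack functional T cells. Of the tumours, 5 came from mice given PBS (T123 to T127) and 6 from mice given A2M (T128 to T132 and T112), which the study used in its transformed form. Host and graft were the same in both groups, so that the injected protein was the labelled difference, and tumour growth under treatment was the question of the study. The counts hold reads that the authors assigned to human, and how many mouse reads were assigned to human was not measured here. In such bulk tissue fewer cells and less RNA per cell cannot be told apart. The labels number the tumours without saying whether each came from its own mouse, and p-values then measure the spread between these tumours.

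MMPs are zinc proteases that are made as inactive precursors and cleave collagens, laminins, other proteases and growth factor carriers once their propeptide is removed. TIMPs bind the active site of MMPs and block it, and TIMP2 in addition bridges the membrane protease MMP14 to the precursor of MMP2, which MMP14 then activates. A2M (alpha-2-macroglobulin) is a plasma protein that encloses active proteases, MMPs included, and in its transformed form binds the receptor LRP1, which also takes up several MMPs from the cell surface.

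The RNA of PC-3 tumours was dominated by MMP14, MMP9 and MMP10 among the proteases and by TIMP1 and TIMP2 among the inhibitors, TIMP3 was close to absent, and none of these genes differed between A2M and PBS tumours beyond the spread between tumours. Of the 10 genes, 9 passed the filter on low counts and 0 of them had an adjusted p under 0.01 in the edgeR quasi-likelihood test with Benjamini-Hochberg adjustment. Among all 16630 genes tested the share called was 0.0%, so the absence of calls is not particular to the set. DESeq2, the edgeR exact test and limma-voom also called 0 of the 9. At an unadjusted p under 0.05, which 7.08% of all genes reached (3.55% as higher and 3.53% as lower in the A2M tumours), there were also 0 of the 9, and in 0 of the 9 were both groups free of overlap, against 0.71% of all genes. By sign alone 5 had a positive and 4 a negative log2 fold change, with a median log2 fold change of 0.02 beside -0.0021 over all genes tested, and the sign of TIMP2 turned under upper quartile and library size scaling.

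MMP7 and MMP10 had the highest levels in the MMP cluster of chromosome 11. Their proximal promoters are shown because both carry the same pair of motifs at nearly the same place, while the promoter of TIMP3, the gene with almost no reads, is shown for contrast. The promoters of MMP14 (248.4 RPKM) and TIMP1 (100.2 RPKM), genes with high levels, also lacked both motifs and are not shown. Of the cluster genes only MMP7 and MMP10 were searched, and a relation of motifs to RNA level was not tested. The sequences are from RefSeq on GRCh38.p14 and run 5′ to 3′ over the 250 bases before the transcription start, from chr11:102530748-102530997 on the minus strand for MMP7, from chr11:102780629-102780878 on the minus strand for MMP10 and from chr22:32801455-32801704 on the plus strand for TIMP3. Capitals mark TGANTCA, a loose form of the site of AP-1 (dimers of FOS and JUN proteins) that allows any middle base, and TATAAA, the TATA box.
MMP7: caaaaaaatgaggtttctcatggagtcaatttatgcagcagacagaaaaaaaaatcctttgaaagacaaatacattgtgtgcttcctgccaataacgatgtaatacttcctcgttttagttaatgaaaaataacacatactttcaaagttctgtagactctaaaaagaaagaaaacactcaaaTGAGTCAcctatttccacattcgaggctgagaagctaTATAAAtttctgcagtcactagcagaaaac
MMP10: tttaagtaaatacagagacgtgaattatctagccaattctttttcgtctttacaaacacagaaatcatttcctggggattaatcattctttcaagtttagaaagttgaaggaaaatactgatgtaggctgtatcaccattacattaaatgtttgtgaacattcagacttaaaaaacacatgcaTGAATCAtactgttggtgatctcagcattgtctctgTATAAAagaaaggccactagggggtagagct
TIMP3: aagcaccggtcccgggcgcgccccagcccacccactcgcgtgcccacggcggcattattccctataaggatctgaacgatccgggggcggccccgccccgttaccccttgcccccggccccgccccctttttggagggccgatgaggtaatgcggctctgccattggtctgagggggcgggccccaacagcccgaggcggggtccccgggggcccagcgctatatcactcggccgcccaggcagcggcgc

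In both MMP promoters the AP-1-like letters ran from -67 to -61 relative to the start. They were TGAGTCA in MMP7 and TGAATCA in MMP10 and so differed in the middle base. The TATA box followed from -30 to -25 in MMP7 and from -31 to -26 in MMP10. Over 35116 RefSeq promoters of the same length, 6.57% held TGANTCA and 10.7% held TATAAA on either strand. No promoter entry was available for MMP1, MMP2, MMP9, MMP13 and TIMP2, which were therefore not searched. Promoter entries were used for 5 of the 10 genes, MMP7, MMP10, MMP14, TIMP1 and TIMP3. Those of MMP14, TIMP1 and TIMP3 held neither motif in this window. The ETS letters AGGAAG, searched on both strands and present in 28.7% of all promoters, were found at 2 places in MMP7 and 1 in TIMP1, and none of these overlapped the other motifs. The base composition set the same promoters apart, with a GC content of 33.6% in MMP7 and 34.4% in MMP10, 56.8% in MMP14, 64.8% in TIMP1 and 72.4% in TIMP3. The TIMP3 window held 26 CpG dinucleotides against 3 in MMP7 and 2 in MMP10. These matches describe letters and not binding.

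Levels were compared between genes as RPKM, in which the authors divided the reads by the exon length of the gene and by the reads of the tumour. MMP14, the membrane-anchored collagenase, had the highest level with 248.4 ± 61.6 RPKM (SD, n = 11), place 195 of the 25590 genes. MMP9, a gelatinase that cleaves denatured and basement membrane collagen, followed with 149.4 ± 52.2 RPKM (SD, n = 11), and MMP10, stromelysin 2, with 118.9 ± 29.0 RPKM (SD, n = 11). Together these 3 genes made up between 93.8% and 96.7% of the summed RPKM of the 7 MMPs in every tumour. The inhibitors TIMP1 and TIMP2 lay just below at 100.2 ± 21.2 and 82.0 ± 5.07 RPKM (SD, n = 11). The other proteases were far lower, at 13.6 ± 3.13 RPKM for MMP7 (matrilysin), 7.13 ± 1.86 for MMP1 and 2.94 ± 0.663 for MMP13, both collagenases of fibrillar collagen, and 0.367 ± 0.176 for MMP2, the second gelatinase (SD, n = 11). TIMP3, an inhibitor that stays bound to the matrix, had 1 count in all 11 tumours, in PBS tumour T127, where 3 counts would equal 0.0152 to 0.0323 RPKM depending on the tumour. It was therefore not detectable at this depth.

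Each neighbour in this order was compared within tumours with a two-sided exact sign-flip permutation test of log2(RPKM + 0.01), adjusted over the 9 pairs. A pair passed here at an adjusted p under 0.05. The test measures how steady a difference was over the tumours. An error of RPKM that is alike in every tumour, from exon length or overlapping exons, would not show in it. MMP14 exceeded MMP9 in 10 of 11 tumours, by 0.78 on the log2 scale (SD 0.416, n = 11, exact permutation test, adjusted p = 0.00293). MMP9 and MMP10 did not differ beyond their spread, with a difference of 0.29 and an SD of 0.836, MMP9 being higher in 8 of 11 tumours (exact permutation test, adjusted p = 0.267). MMP10 over TIMP1 (difference 0.23, higher in 8 of 11 tumours) and TIMP1 over TIMP2 (difference 0.26, higher in 10 of 11 tumours) passed this threshold narrowly, with adjusted p of 0.0494 and 0.0465 from the same exact permutation test. Neither was under 0.01. Both of these calls were lost when single tumours were left out: the adjusted exact permutation p of MMP10 over TIMP1 rose to between 0.0578 and 0.0989 without T123, T124, T125, T126, T129, T130, T131 or T132, and that of TIMP1 over TIMP2 to between 0.0578 and 0.0857 without any of these or T127. Every step below TIMP2 was seen in 11 of 11 tumours, at the smallest p the 2048 sign flips allow (exact permutation p = 0.000977, adjusted 0.00176). The largest gaps were those from TIMP2 to MMP7 (2.62) and from MMP13 to MMP2 (3.10), apart from the gap down to TIMP3, whose size depends on the pseudocount.

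**Figure D1:**
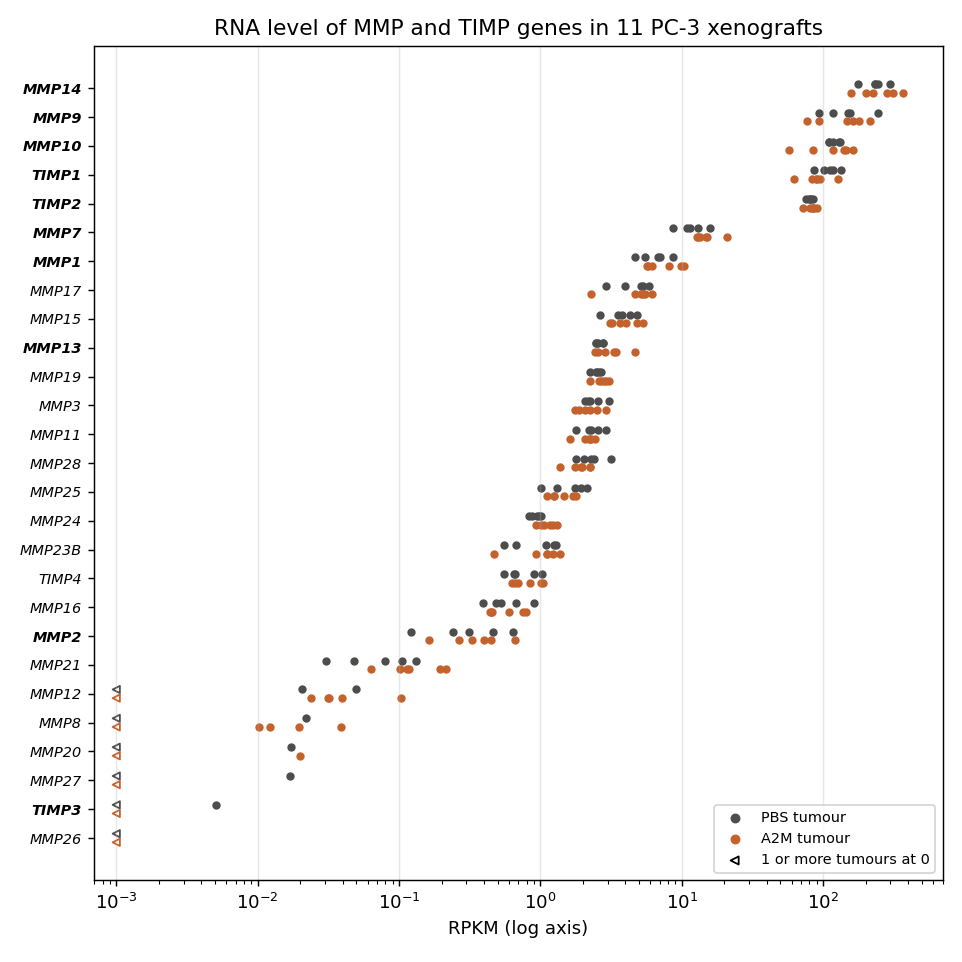
RNA level (RPKM, log axis) of the 27 human MMP and TIMP genes in each of the 11 tumours, with PBS tumours in grey and A2M tumours in orange, the 10 genes of the set in bold and open triangles where 1 or more tumours were at 0. MMP14, MMP9, MMP10, TIMP1 and TIMP2 lie above 50 RPKM in every tumour, while TIMP3 has a point for a single tumour only.

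None of the other 17 MMP and TIMP genes reached the mean level of MMP1, although MMP17 exceeded MMP1 in 2 tumours, T125 and T112. The highest were the membrane-type proteases MMP17 at 4.76 RPKM and MMP15 at 3.93 RPKM (means, n = 11), both above MMP13. MMP19 (2.63), MMP3 (2.32), MMP11 (2.24), MMP28 (2.11), MMP25 (1.52), MMP24 (1.03), MMP23B (1.01), TIMP4 (0.789) and MMP16 (0.587) followed, all as mean RPKM above that of MMP2. MMP21 had 0.109 RPKM, MMP12 0.0273, MMP8 0.00932, MMP20 0.00337 and MMP27 0.00154, and MMP26 had no count in any tumour. Of the 17, 11 could be tested, 6 had a positive and 5 a negative log2 fold change, and 0 were called. The smallest p belonged to MMP28, epilysin, with a log2 fold change of -0.32 (edgeR unadjusted p = 0.0506, adjusted p = 0.707).

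Genes of the MMP cluster differed widely in level although they are neighbours. On GRCh37 the cluster spans 435 kb of chromosome 11, from 102391239 to 102826461, and its 9 genes all lie on the minus strand. In order of position MMP7 (13.6 RPKM) was followed by MMP20, MMP27 and MMP8, each at or below 0.0386 RPKM in every tumour. Then came MMP10, from 102641233 to 102651359, with 57.1 to 162 RPKM, next to MMP1, from 102660132 to 102668891, with 4.64 to 10.3 RPKM. MMP3, whose protein stromelysin 1 is close to that of MMP10, had 1.77 to 3.05 RPKM, MMP12 at most 0.104, and MMP13 at the far end 2.43 to 4.67. MMP10 and MMP3 were the only pair of the 351 pairs of family genes that shared a window of 50 exonic bases, so reads of these 2 genes could in part be divided uncertainly. The exons of MMP1 overlap those of WTAPP1 on the other strand, which had 1 to 12 counts per tumour, those of MMP9 overlap SLC12A5-AS1 on the other strand, and those of TIMP2 overlap CEP295NL. Among the other family genes, exons of MMP23B overlap CDK11B (2222 to 4506 counts per tumour) and those of MMP19 overlap TMEM198B (369 to 1021). Exons of MMP21 overlap EDRF1 (368 to 746) and those of TIMP4 overlap SYN2 (11 to 37), all on the other strand. The libraries were unstranded, so strand could not separate such reads. Their share in these levels was not measured, and the strand setting of the counting is not given in the sources used here.

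The genes outside the cluster lie apart on GRCh37. MMP14 is on chromosome 14 (23305769 to 23318250), MMP2 on chromosome 16 (55423612 to 55540603) and MMP9 on chromosome 20 (44637547 to 44645200). TIMP1 is on chromosome X (47441807 to 47446188), TIMP2 on chromosome 17 (76849059 to 76921469) and TIMP3 on chromosome 22 (33197691 to 33259028). Between tumours, levels of a gene are given below as CPM, counts scaled to a common library size with TMM factors, which is not divided by length and serves to compare tumours only.

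MMP14 varied within both groups by more than the groups differed. The 5 PBS tumours had 870.3, 1117, 660.6, 838.9 and 848.0 CPM. The A2M tumours ran from 553.1 to 1320 CPM with a median of 902.2. Both the lowest tumour, T132, and the highest, T112, belonged to the A2M group, and the groups overlapped over the whole PBS range. The means of 866.9 ± 162.9 (SD, n = 5) and 916.0 ± 279.4 CPM (SD, n = 6) gave a log2 fold change of 0.08 (SE, the standard error, 0.194, 95% interval -0.338 to 0.497, edgeR adjusted p = 0.963). This sign turned without A2M tumour T112 (-0.05) and without PBS tumour T125 (-0.00405).

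MMP9 spread more widely still. The PBS tumours had 348.7, 381.6, 287.4, 217.4 and 583.6 CPM. In the A2M tumours the lowest, median and highest values were 176.2, 357.1 and 508.4 CPM. The highest tumour of all was PBS tumour T127, and 2 A2M tumours, T130 and T132, lay below every PBS tumour. The log2 fold change was -0.10 (SE 0.276, 95% interval -0.694 to 0.492, edgeR adjusted p = 0.969), so that a fold change between 0.618 and 1.41 lay within the interval. Without T127, T130 or T132 it was positive (0.136, 0.00419 and 0.0313), and over all tumours left out in turn it ran from -0.25 to 0.14.

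MMP10 differed between the groups in its spread more visibly than in its mean. The PBS tumours lay close together at 230.4, 237.5, 216.3, 193.9 and 197.9 CPM. The A2M tumours ran from 101.0 to 278.4 CPM with a median of 223.7, so that 3 of them lay above and 2 below every PBS tumour. The coefficient of variation of CPM was 8.94% in the PBS tumours and 33.0% in the A2M tumours, and the difference in spread was not tested. It was not particular to MMP10. In the set it was also larger in the A2M tumours for MMP1, MMP13, MMP14, TIMP1 and TIMP2, and smaller for MMP2, MMP7 and MMP9. Outside the set THBS1 had 8.90% in the PBS and 30.7% in the A2M tumours, and FOS 92.6% and 30.2%. The share of all genes with a wider spread in the A2M tumours was not counted. The log2 fold change of MMP10, -0.08 (SE 0.202, edgeR adjusted p = 0.964), turned to 0.06 without T112, the lowest tumour.

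TIMP1, which binds most MMPs and pairs with the precursor of MMP9, had the largest difference in the set and the smallest p. The PBS tumours had 101.7, 97.0, 112.4, 78.8 and 124.9 CPM. The A2M tumours had a lowest value of 57.7, a median of 82.4 and a highest value of 114.9 CPM. In 2 A2M tumours, T112 and T131, TIMP1 was below every PBS tumour, while T132 lay within the PBS range, so the groups overlapped. The group means were 102.9 ± 17.2 (SD, n = 5) and 82.8 ± 18.7 CPM (SD, n = 6), and the log2 fold change was -0.32 (SE 0.149, 95% interval -0.637 to 0.004, unadjusted p = 0.0528, edgeR adjusted p = 0.71). It did not pass the test, and it stayed negative when any tumour was left out, between -0.43 and -0.23, the latter without T112.

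TIMP2 was the steadiest gene of the set. It had 272.2, 323.1, 313.9, 290.7 and 303.2 CPM in the PBS tumours. In the A2M tumours it ran from 257.4 to 331.7 CPM with a median of 304.3, a range that covered all PBS tumours. Its log2 fold change was -0.0037 (SE 0.0739, edgeR adjusted p = 0.995). The 95% interval from -0.162 to 0.155 was the narrowest among the genes tested in the set and left room for a fold change between 0.894 and 1.11. Its sign turned without T124, T125, T130 or T131, and stayed within 0.0385 of 0.

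Of the proteases at lower levels, MMP7 and MMP13 had the larger differences. MMP7 had 14.5, 12.8, 13.3, 9.70 and 18.2 CPM in the PBS tumours. The A2M tumours had 14.2 CPM at the lowest, a median of 15.5 and 23.1 CPM at the highest, in T128, which alone exceeded every PBS tumour. The log2 fold change of 0.27 (SE 0.159, edgeR adjusted p = 0.777) was 0.15 without T128.

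MMP13 was narrow in the PBS tumours, with 7.43, 7.86, 7.27, 6.72 and 6.85 CPM. The A2M tumours ran from 6.61 to 12.3 CPM with a median of 8.28, and 3 of them lay above and 1, T129, below every PBS tumour. The log2 fold change was 0.25 (SE 0.143, edgeR adjusted p = 0.772), and without T131, the highest tumour, it was 0.12. For MMP1 and MMP2 the groups overlapped, although 2 A2M tumours, T130 and T131, exceeded every PBS tumour in MMP1. MMP1 had 9.90 to 17.6 CPM in the PBS tumours and 11.6 to 20.6 CPM in the A2M tumours (log2 fold change 0.19, SE 0.186, edgeR adjusted p = 0.89). With each tumour left out that value ran from 0.0865 (without T131) to 0.295 (without T126), and it was 0.0913 without T125 and 0.108 without T130. MMP2 had 0.483 to 2.50 CPM in the PBS and 0.607 to 2.45 CPM in the A2M tumours, from 16 to 88 counts per tumour, and its log2 fold change of 0.02 had the widest 95% interval, from -0.811 to 0.853 (edgeR adjusted p = 0.9945). It was negative without T123, T125, T126, T131 or T112, with -0.21 the lowest.

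**Figure D2:**
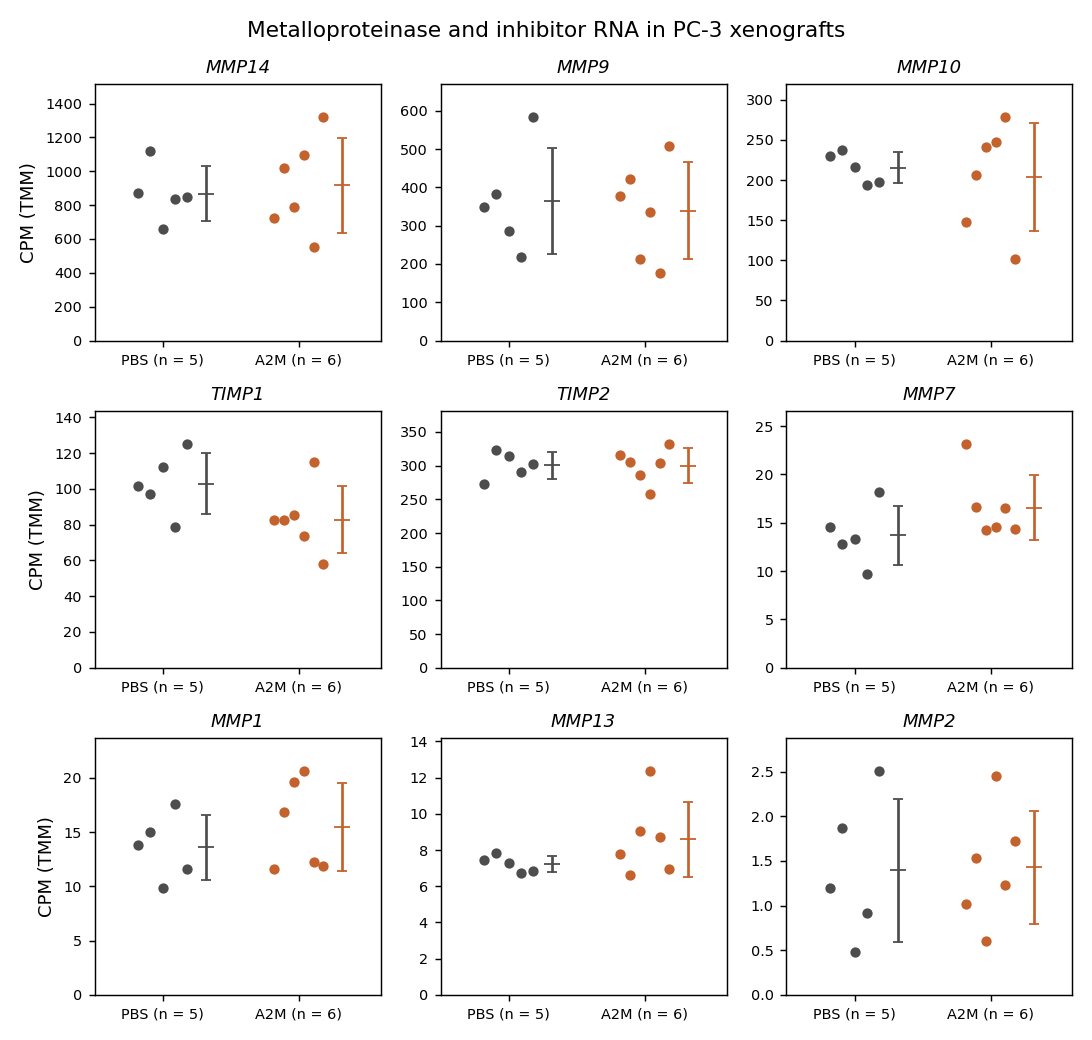
CPM after TMM scaling of the 9 genes tested, 1 point per tumour (5 PBS, 6 A2M), with the mean and SD of each group beside the points and each axis starting at 0. In every panel the groups overlap, and the A2M points of MMP10 and MMP13 are more spread out than the PBS points.

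**Figure D3:**
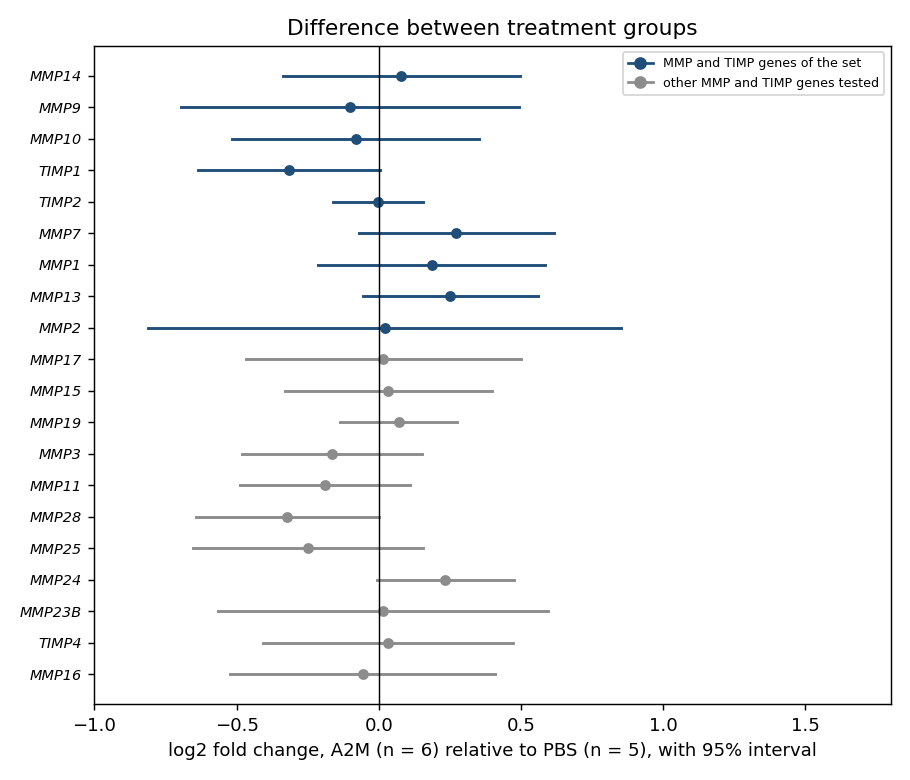
Log2 fold change of A2M relative to PBS tumours with its 95% interval from the edgeR quasi-likelihood fit, for the 9 genes of the set (blue) and the 11 other MMP and TIMP genes tested (grey). All 20 intervals include 0, with ends close to 0 for TIMP1 and MMP28, which were lower, and for MMP24, which was higher.

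The RNA of proteases and inhibitors was compared by ratios of RPKM within a tumour. These ratios cover RNA assigned to human only. Mouse RNA, protein levels, activation of precursors and the injected A2M lie outside them, so they do not measure a balance of activity. MMP14 exceeded TIMP2 in all 11 tumours, by a ratio between 1.85 in T132 and 4.33 in T131. The ratio of MMP9 to TIMP1 was between 1.00 and 1.83 in the PBS tumours and between 0.601 (T132) and 3.46 (T112) in the A2M tumours. Summed over the set, MMP RPKM divided by TIMP RPKM was 2.16 to 3.25 in the PBS tumours with a median of 2.84, and 1.98 to 4.32 in the A2M tumours with a median of 3.13. The A2M tumours thus held both the lowest and the highest ratio, in T132 and T112.

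These 2 A2M tumours stood at opposite ends of the 11 tumours for MMP14 and MMP10. T112 had the highest MMP14 and TIMP2 and the lowest MMP10 and TIMP1 of all 11 tumours. T132 had the highest MMP10 and the lowest MMP14 and MMP9. In RPKM the ratio of MMP10 to MMP14 was 0.156 in T112 and 1.03 in T132, against 0.416 to 0.669 in the other 9 tumours. PBS tumour T127 had the highest MMP9, MMP2 and TIMP1.

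**Figure D4:**
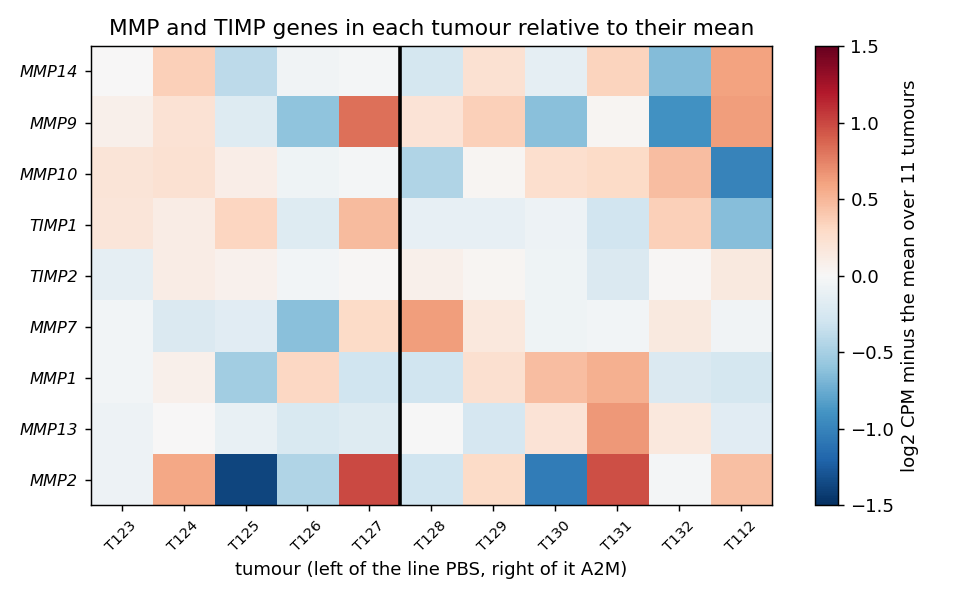
Log2 CPM of each gene in each tumour minus its mean over the 11 tumours, as a colour from blue (lower) to red (higher), with PBS tumours left and A2M tumours right of the line. T112 and T132 have opposite colours for MMP14, MMP9, MMP10 and TIMP1, and the row of TIMP2 is nearly white.

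The spread between tumours was larger than for most genes of like abundance, with TIMP2 as the exception. The biological coefficient of variation, the variation between tumours of a group beyond counting noise, was 42.5% for MMP2, 31.6% for MMP9, 23.5% for MMP10 and 22.4% for MMP14. MMP1 had 21.4%, MMP7 18.5%, TIMP1 17.6% and MMP13 16.4%, and TIMP2 had 9.43%. It lay above the trend of all genes at the same abundance for 7 of the 9 genes (77.8%), and 31.4% of all genes tested lay above it. MMP13 was level with its trend of 16.5%. The share above the trend was also high in related lists, with 54.5% of the other MMP and TIMP genes, 69.6% of the ADAM and ADAMTS genes, 61.5% of the AP-1, ETS and NF-kappa-B genes and 13 of 13 matrix genes, so it was not particular to the set. The median was 21.4% in the set and 12.4% over all genes. Among the genes within 0.5 log2 CPM, 99.1% had a lower value than MMP9, 98.6% than MMP10, 98.4% than MMP2 and 68.1% than MMP13, but 34.7% than TIMP2. Between the lowest and the highest tumour CPM differed 5.18-fold for MMP2, 3.31-fold for MMP9, 2.76-fold for MMP10 and 1.29-fold for TIMP2.

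**Figure D5:**
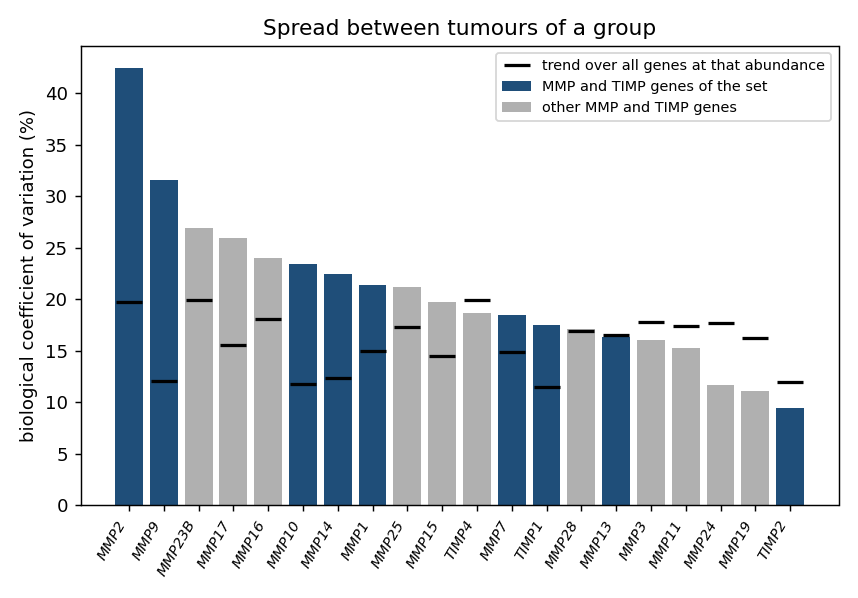
Biological coefficient of variation (percent) of the 9 genes of the set (blue) and 11 other MMP and TIMP genes (grey), with the trend over all genes at the abundance of each gene as a black line. MMP2 (42.5%) and MMP9 (31.6%) lie farthest above their trend, and TIMP2 (9.43%) lies below it.

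Whether genes of the set rose and fell together was looked at over the 11 tumours for 36 pairs of log2 CPM, which share their libraries and scaling. None passed a Benjamini-Hochberg adjusted permutation p under 0.05, with 0.323 the smallest for Spearman's rho and 0.271 for Pearson's r. Unadjusted, 4 pairs had a permutation p under 0.05 for rho and 6 for r, and not all of these are given here. The gelatinase MMP9 and the membrane protease MMP14 had r = 0.64 (permutation p = 0.0357) and rho = 0.66 (permutation p = 0.0335), and r = 0.62 without T127 and T132. The cluster genes MMP10 and MMP13 had rho = 0.73 (permutation p = 0.0147) and r = 0.44 (permutation p = 0.156), and r = 0.71 without T112 and T128. MMP14 and TIMP1 ran against each other with r = -0.66 (permutation p = 0.0264) and rho = -0.56 (permutation p = 0.0836). Without T112 and T132 that r was -0.33, so the relation rested on these tumours.

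Among all genes tested, those with a pattern most like that of a gene of the set were picked by the highest Spearman rho over the 11 tumours, as the top of 16630 values and thus without a test. For MMP14 these were ADTRP (rho 0.991, Pearson's r 0.97), TUBB6 (0.964), a tubulin, and the amino acid transporter gene SLC7A7 (0.955). For TIMP1 they were EPHA10 (0.991), SLPI (0.982), which encodes a secreted inhibitor of serine proteases, and TMEM205 (0.964). MMP2 was followed most closely by CSF1 (0.936), the growth factor of macrophages, and by COL5A1 and TMEM51 (both 0.90), of which COL5A1 encodes a fibrillar collagen chain. MMP9 was most like PLXNA1 (0.964), a semaphorin receptor gene, SREBF2 and ARHGAP10 (both 0.955). The closest to MMP7 were ZFHX2 (0.982), LFNG (0.945) and ZNF696 (0.936), to MMP1 MED7 (0.964), COPS4 (0.927) and PPP2R3C (0.918), and to MMP10 EXOSC8 (0.927), TEX21P (0.90) and MS4A10 (0.882). MMP13 was closest to ASPRV1, GOLGA8CP (both 0.90) and GLA (0.882), and TIMP2 to AK8 (0.936), MGST3 (0.918) and MICA (0.909).

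Genes that activate, inhibit or clear MMPs were not called either. Of 18 such genes 17 could be tested, with a positive log2 fold change in 11 and a negative one in 6. RECK, a membrane-anchored inhibitor of MMPs, had 4.58 to 5.80 CPM in the PBS and 5.41 to 7.39 CPM in the A2M tumours. Its log2 fold change was 0.24 (SE 0.109, unadjusted p = 0.0473, edgeR adjusted p = 0.699). PCSK7, a proprotein convertase, had the smallest p among the lower genes (log2 fold change -0.09, edgeR adjusted p = 0.838). Among the ADAM and ADAMTS proteases, relatives of the MMPs that shed membrane proteins and cleave proteoglycans and procollagens, 23 of 28 were tested, 8 higher and 15 lower. Their smallest p in each direction belonged to ADAMTS14 (log2 fold change 0.66, edgeR adjusted p = 0.743) and ADAM8 (-0.45, adjusted p = 0.731).

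All 13 genes of AP-1, ETS and NF-kappa-B factors, which bind MMP promoters, were tested, 7 higher and 6 lower with 0 called. FOS had a log2 fold change of -1.57 (SE 0.505, unadjusted p = 0.00781, edgeR adjusted p = 0.64), the lowest of all genes tested. PBS tumour T125 had 11.4 CPM of FOS and T126 6.26 CPM, while every other tumour lay between 1.09 and 2.74 CPM. JUN had a log2 fold change of 0.22 (edgeR adjusted p = 0.842). Of 14 matrix genes cleaved by MMPs 13 were tested, 6 higher and 7 lower, with COL1A2 at 0.73 (unadjusted p = 0.0459, edgeR adjusted p = 0.699) and the laminin gene LAMA3 at -0.26 (adjusted p = 0.783).

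Markers of the graft and of other cells were read from the same human counts. The epithelial list held KRT8, KRT18, KRT19, EPCAM, CD44 and VIM, the last of which the paper uses as a mesenchymal marker. The list summed to 2784 to 3340 CPM in the PBS and 2511 to 3166 CPM in the A2M tumours. VIM alone had 483.6 to 813.0 CPM, so the sum is not a measure of epithelial identity alone. Of the luminal prostate genes TMPRSS2 had 32.75 to 81.35 CPM (776 to 2601 counts) over the 11 tumours, while KLK3 had no count and KLK2 at most 1 count in any tumour. The fibroblast list summed to 318.1 to 695.1 CPM in the PBS and 318.6 to 926.8 CPM in the A2M tumours, nearly all of it COL1A1, while DCN and THY1 had at most 3 counts and LUM at most 5 in any tumour. Macrophage genes summed to 11.7 to 13.7 and 12.98 to 14.6 CPM, neutrophil genes to 394.5 to 573.3 and 384.0 to 531.8 CPM with MPO, ELANE and CSF3R at no more than 1 count, and endothelial genes to 17.6 to 24.6 and 15.8 to 23.1 CPM. In CPM, the scale used here to compare tumours, the macrophage sums of the groups overlapped. In RPKM, which carries no TMM scaling, they were 5.29 to 5.97 in the PBS and 6.15 to 6.69 in the A2M tumours, without overlap. This was not tested. With library size scaling only, the median log2 fold change of all genes was 0.0419, against -0.0021 with TMM. LYZ alone had 6.28 to 7.35 CPM and 3.97 to 4.97 RPKM, while AIF1 and CD163 had at most 2 counts in any tumour. Over the 11 tumours none of 54 relations between a gene of the set and a list passed an adjusted permutation p under 0.05. Unadjusted, 8 had a permutation p under 0.05 for rho and 9 for r, and not all of these are given here. MMP2 and the fibroblast list had r = 0.79 (permutation p = 0.00415, adjusted 0.0994) and rho = 0.76 (permutation p = 0.00834, adjusted 0.11), with r = 0.84 without T126 and T128. TIMP1 and the neutrophil list, which is nearly all S100A9, had r = 0.75 (permutation p = 0.00748, adjusted 0.101) and rho = 0.82 (permutation p = 0.00307, adjusted 0.11), with r = 0.74 without T126 and T131. MMP1 ran against the epithelial list with r = -0.79 (permutation p = 0.0039, adjusted 0.0994) and rho = -0.73 (permutation p = 0.0149, adjusted 0.115), with r = -0.52 without T130 and T131. It also ran against the neutrophil list with r = -0.75 (permutation p = 0.0106, adjusted 0.114) and rho = -0.80 (permutation p = 0.00449, adjusted 0.11), with r = -0.60 without T126 and T131. TIMP2 and the epithelial list had r = 0.78 (permutation p = 0.00552, adjusted 0.0994) and rho = 0.76 (permutation p = 0.00985, adjusted 0.11), with r = 0.51 without T130 and T131. MMP14 and the macrophage list had r = 0.66 (permutation p = 0.0258, adjusted 0.174) and rho = 0.76 (permutation p = 0.0102, adjusted 0.11), with r = 0.56 without T125 and T131. With the fibroblast list MMP14 had r = 0.64 (permutation p = 0.0379, adjusted 0.228) and rho = 0.73 (permutation p = 0.0147, adjusted 0.115), with r = 0.67 without T126 and T128. The part of these lists in the spread of MMP1, MMP2, MMP14, TIMP1 and TIMP2 was not tested.

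None of the marker genes was called between the groups. The smallest p belonged to the endothelial gene VWF, with 0.796 to 1.09 CPM in the PBS and 0.598 to 0.876 CPM in the A2M tumours, 4 of which lay below every PBS tumour (log2 fold change -0.42, SE 0.168, unadjusted p = 0.0247, edgeR adjusted p = 0.648). The other genes with the smallest p in a direction of their list had edgeR adjusted p of at least 0.699. Among them PTPRC, the leukocyte gene CD45, had a log2 fold change of -0.44, LYZ 0.10, TEK 0.27, S100A9 -0.20, KRT8 -0.14, CD44 0.02 and TMPRSS2 0.13.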

How the data were processed

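RNA of 11 PC-3 xenografts was sequenced as single reads from unstranded TruSeq v2 libraries. Per the paper's methods and the labels, the authors converted reads with bcl2fastq 1.8.4, separated human from mouse reads with xenome, mapped them with TopHat2 to hg19 and used featureCounts for the reads per RefSeq gene. The authors deposited whole-number counts without normalization, RPM (the count divided by the total of the tumour and scaled, matched within 4.99e-07) and RPKM (RPM divided by exon length). Versions and the strand setting of featureCounts are not given in the sources used here. Totals were 16958533 to 35874381 counts, at which 3 counts equalled 0.0836 to 0.177 RPM (counting error only).

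Groups followed the labels, without covariates. After filterByExpr and TMM scaling, 16630 genes entered the quasi-likelihood fit (edgeR 4.0.16, R 4.3.3). A gene was called at a Benjamini-Hochberg adjusted p under 0.01. These steps had been tested on simulated data. Standard errors are the log2 fold change divided by the square root of F. Relations over tumours used 100000 permutations and log2 CPM (prior count 2). Alternatives used DESeq2 1.42.0 and limma 3.58.1. Python 3.11.15 with matplotlib 3.10.9 drew the figures.

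Named were all genes of the set, the other MMP and TIMP genes by level, the gene with the smallest p in each direction of each further list, and the 3 genes most like each gene of at least 1 CPM. Beyond the genes given, 1 luminal prostate marker is not reported here. Other genes were named after their values were seen. The members and lists were chosen with earlier results of these data known. Gene positions are from GENCODE on GRCh37, promoters from RefSeq.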

Additional observations from a re-analysis of the deposited data

Results flagged for a closer look

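Within each group, a tumour that stood far from the rest was looked for by its gap to the nearest other tumour relative to the range of the group. The search covered 90 groups of values and found 2, where chance gives about 4.5. In the A2M group, T128 had 23.12 CPM of MMP7 and the other tumours had 14.23 to 16.59 CPM. A2M tumour T131 had 7.394 CPM of RECK against 5.414 to 6.123 CPM in the others. T131 also had the highest MMP1 and MMP13 of all tumours and the lowest TIMP2.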

How the results depend on the processing

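The count of 0 genes called among all genes was also 0 with RLE, upper quartile and library size scaling, without a filter, with at least 10 counts in every tumour, with limma-voom, at an adjusted p under 0.05, and without any tumour in turn (0 to 0). It was 1 with DESeq2 and 1 with the edgeR exact test, the gene REP15, no member of the set. At an unadjusted p under 0.05, 591 of 1178 genes were higher, against 717 of 1190 with upper quartile and 1022 of 1330 with library size scaling. Under other settings 284 of 287 log2 fold changes kept their direction and side of the threshold. TIMP2 turned to 0.00987 with upper quartile and 0.0405 with library size scaling, and MMP17 to -0.0158 with limma-voom.

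Leaving out single tumours turned the sign of 44 of 396 log2 fold changes, in 12 genes. Their ranges were -0.21 to 0.35 for MMP2, -0.25 to 0.14 for MMP9, -0.191 to 0.0599 for MMP10, -0.0521 to 0.189 for MMP14 and -0.0375 to 0.0385 for TIMP2. They were -0.0774 to 0.131 for MMP15, -0.17 to 0.12 for MMP16, -0.11 to 0.17 for MMP17, -0.12 to 0.17 for MMP23B, -0.0606 to 0.174 for TIMP4, -0.0399 to 0.102 for CD44 and -0.0654 to 0.225 for TMPRSS2. The order by level kept all 18 neighbour differences with pseudocounts of 0.1 and 1. At an adjusted p under 0.05, 6 to 8 of 9 pairs passed with a tumour left out, against 8 with all. Biological coefficients of variation moved little with library size scaling (8.64% for TIMP2, 42.2% for MMP2). No paired analysis was possible because the groups share no tumour numbers. The permutation test planned for genes below the filter was not run, since TIMP3 had 1 count and the minimum was 10. Causes were not tested. TIMP3 was not detectable at this depth.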
